A study of Mus musculus with 5 samples.

Results

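The 7 genes Lyve1, Folr2, Cd163, Mrc1, Cbr2, Maf and Selenop mark a class of resident macrophages that lie along blood vessels and are named after LYVE1. They were taken as a fixed list, matched by symbol to Ensembl identifiers, and make up 7 of the 41388 genes in the deposited tables. All 7 were found and all 7 passed the filter on low counts. The study sequenced polyadenylated RNA from macrophages sorted from mouse aorta. For the 3 adventitia libraries the donors were ApoE-/- mice on the C57BL/6 strain fed high fat for 28 weeks (6 mice named for the group). Adventitia is the outer coat of the vessel. Their cells were taken from the outer coat of the whole aorta, abdominal part included, and sorted as live cells (PI-) positive for CD64. The 2 intima libraries came from C57BL/6 mice with no altered genotype or diet given, 5 mice pooled for each. Intima is the innermost layer. Their cells came from the thoracic aorta after the outer coat was stripped, and the gate kept live cells that carried CD64 together with CD11c and MHC II. No age is stated for either group. Layer, genotype, diet, aortic segment and gate changed together, so their effects cannot be told apart, and ApoE-/- removes the gene in every cell of the mouse. Nothing says whether the 3 adventitia libraries are separate animals, so the spread between them may be technical.

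Macrophages of the LYVE1 type sit in the connective tissue around arteries and in many other organs. They are long-lived, take up proteins, hyaluronan and debris from their surroundings, and usually carry low MHC class II. In the artery wall they lie mainly in the adventitia. Their markers fall into surface receptors for uptake (LYVE1 for hyaluronan, CD163 for haemoglobin bound to haptoglobin, the mannose receptor MRC1 and the folate receptor FOLR2), a lung-type carbonyl reductase (CBR2), the transcription factor MAF, which shapes macrophage identity, and the secreted selenium carrier selenoprotein P. None of these genes is unique to macrophages. Lymphatic endothelium also makes LYVE1.

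The promoters of the 4 genes whose levels separated the groups are shown because the MAF protein is itself one of the markers and its recognition letters can be looked for there. RefSeq (GRCm38.p6) held a promoter window of 300 bases for 5 of the 7 genes, and each window runs from 250 bases before to 50 bases after a start site. The letters searched, on both strands, were TGCTGA (core of the MAF site), TGANTCA (AP-1) and GAGGAA (PU.1). The TGCTGA and TGANTCA patterns can share bases. Capitals mark TGCTGA, read as TCAGCA on the other strand, and TGANTCA. All 4 are written 5′ to 3′ along the gene's strand.
Folr2, chr7:101845282-101845581, minus strand: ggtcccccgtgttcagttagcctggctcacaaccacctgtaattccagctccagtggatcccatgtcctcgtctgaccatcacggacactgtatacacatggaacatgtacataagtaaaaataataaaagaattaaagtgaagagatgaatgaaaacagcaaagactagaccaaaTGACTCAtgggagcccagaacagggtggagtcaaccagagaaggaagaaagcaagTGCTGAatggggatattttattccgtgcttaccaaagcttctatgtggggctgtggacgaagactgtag
Cd163, chr6:124304401-124304700, plus strand: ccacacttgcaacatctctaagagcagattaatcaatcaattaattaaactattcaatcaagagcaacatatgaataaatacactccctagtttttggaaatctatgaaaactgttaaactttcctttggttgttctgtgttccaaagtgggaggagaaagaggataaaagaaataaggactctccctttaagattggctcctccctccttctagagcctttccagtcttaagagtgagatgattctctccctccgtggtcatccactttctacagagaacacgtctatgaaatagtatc
Mrc1, chr2:14229164-14229463, plus strand: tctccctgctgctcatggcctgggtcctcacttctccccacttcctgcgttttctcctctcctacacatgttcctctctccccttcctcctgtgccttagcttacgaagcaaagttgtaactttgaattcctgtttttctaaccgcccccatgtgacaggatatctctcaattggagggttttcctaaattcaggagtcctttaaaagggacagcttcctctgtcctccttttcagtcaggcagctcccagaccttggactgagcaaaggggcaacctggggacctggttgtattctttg
Cbr2, chr11:120731972-120732271, minus strand: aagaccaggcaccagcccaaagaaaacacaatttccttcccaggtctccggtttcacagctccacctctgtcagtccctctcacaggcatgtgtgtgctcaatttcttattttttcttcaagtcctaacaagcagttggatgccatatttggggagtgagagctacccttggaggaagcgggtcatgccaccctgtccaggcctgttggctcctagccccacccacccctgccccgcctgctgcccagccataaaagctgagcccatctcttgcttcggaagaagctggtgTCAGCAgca

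In the Folr2 window TGCTGA began at base 232 and TGANTCA at base 177 of the 300, and in the Cbr2 window TGCTGA began at base 292; the start site follows the first 250 bases. Of the 5 genes with a window, 2 held TGCTGA, against 19.5% of all 32851 promoter windows of that length. TGANTCA was in 1 of the 5 against 7.81% of all windows, and GAGGAA in 3 of the 5 (3 copies in Mrc1, 1 each in Cbr2 and Selenop) against 28.3%. These are letter matches and say nothing of binding. The Folr2, Cd163 and Mrc1 windows start from the same base as the gene in the deposited tables, while the Cbr2 start site lay 93 bases inside the deposited gene.

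Every one of the 7 markers had a lower fitted level in the intima libraries than in the adventitia libraries, and none passed the test over all genes. Fitted differences below 0 made up 46.6% of the 13408 genes tested. The test was edgeR's quasi-likelihood test on read counts, with 0.05 as the limit on the adjusted p for a call. It called 0 of the 7 markers, where it called 0.671% of all genes in either direction and 0.149% as lower in the intima. An unadjusted p under 0.05 in edgeR was reached by 4 of the 7, and by 3010 of the 13408 genes tested. The median log2 difference of the 7, intima minus adventitia as everywhere below, was -1.27, and the median of all tested genes was 0.14. After TMM scaling, which corrects library totals for differences in composition, the group ranges did not overlap for 4 of the 7, Folr2, Cd163, Mrc1 and Cbr2, all higher in the adventitia. Of all tested genes 23.2% stood apart in that direction and 17.7% in the other. On the deposited CPM, reads scaled to the library total with no further correction, all 7 stood apart with the adventitia higher, against 26.4% of all genes. The 7 genes took 1.93, 1.42 and 1.58% of all reads in adventitia replicates 1 to 3, and 1.01 and 0.464% in intima replicates 1 and 2. Most of this was Selenop in every library. It had 9303 of the 16682 summed TMM-normalised CPM in adventitia replicate 1 and 3562 of 4859 in intima replicate 2. In bulk RNA, fewer cells that make these transcripts and less transcript per cell cannot be told apart.

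**Figure D1:**
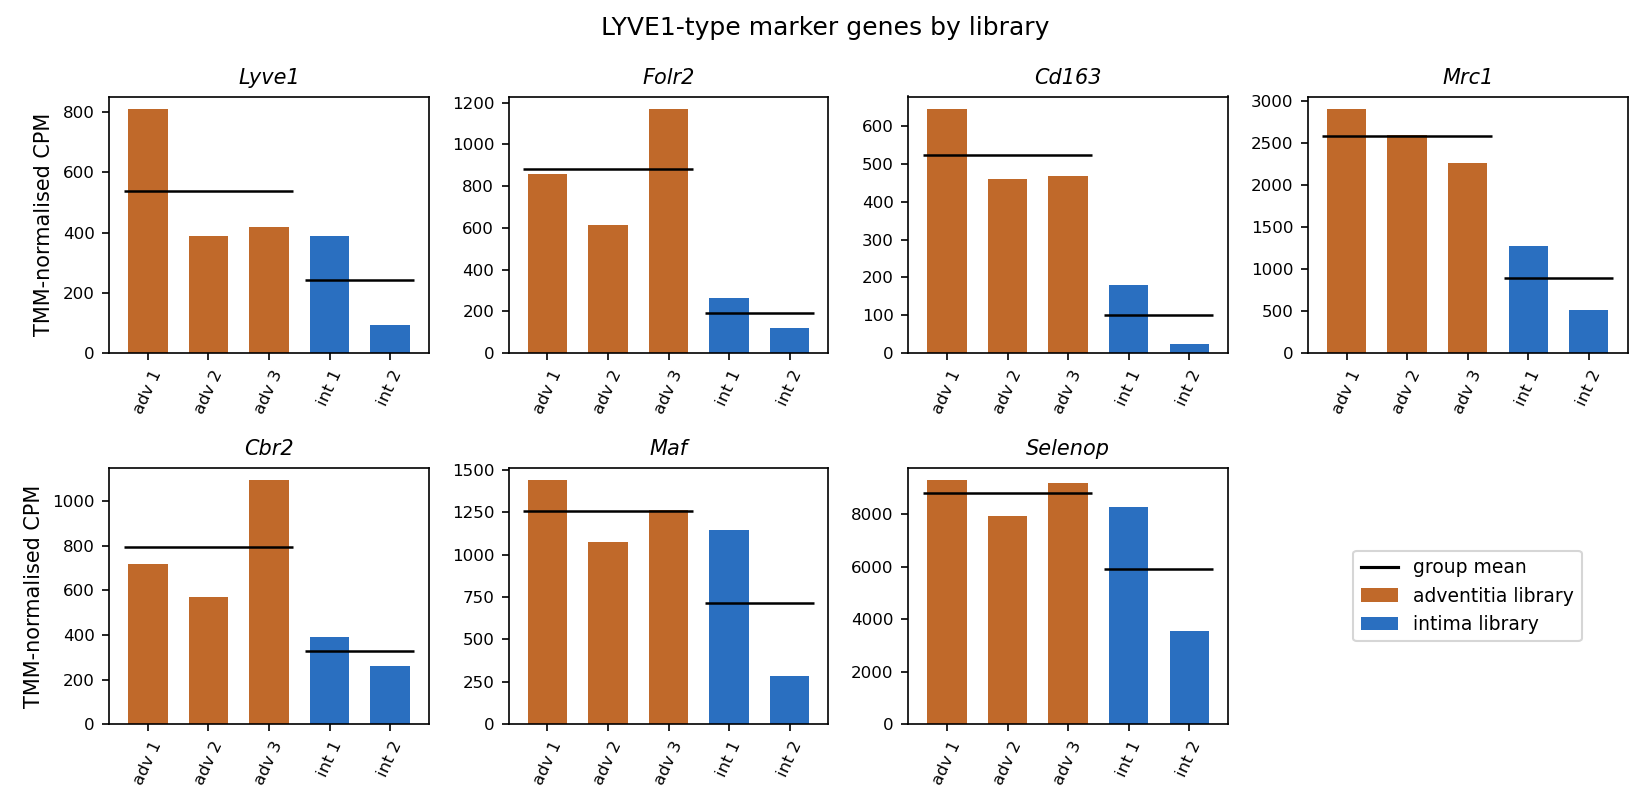
TMM-normalised CPM (y axis, linear from 0, scale set for each gene) of the 7 markers in each library (x axis), with bars for libraries and black lines for group means. Folr2, Cd163, Mrc1 and Cbr2 were lower in both intima libraries than in any adventitia library, and intima replicate 2 was the lowest library for all 7 genes.

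Mrc1, the mannose receptor (ENSMUSG00000026712, chromosome 2, 14229414 to 14332057 in GRCm38), was the most abundant of the 4 receptors by reads. It had 13305, 27270 and 22629 reads in the adventitia libraries (3376, 2706 and 2251 deposited CPM) and 16266 and 10108 reads in the intima libraries (1087 and 486 CPM). The adventitia libraries lay close together and both intima libraries fell below all of them. After TMM scaling the level was 2590 ± 323 CPM in adventitial libraries (SD, n = 3) and 892 ± 542 CPM in intimal ones (SD, n = 2). The log2 difference was -1.54 (SE 0.50, 95% interval -2.63 to -0.44, adjusted p = 0.115 in edgeR). Leaving out intima replicate 1 gave -2.48 and leaving out intima replicate 2 gave -0.93.

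A microRNA gene, Mir511, lies on the same strand in intron 5 of the Mrc1 transcript with 30 exons (hairpin at chr2:14261003-14261081). Its mature 3p strand is shown with the seed, bases 2 to 8, in capitals, because reads over the hairpin did not follow those of the host gene.
mmu-miR-511-3p: aAUGUGUAgcaaaagacaggau
The hairpin held 0, 1 and 9 reads in the adventitia libraries, 137 in intima replicate 1 and 0 in intima replicate 2. In deposited CPM that is 0, 0.099 and 0.895 in the adventitia, and 9.15 and 0 in the intima. A library of polyadenylated RNA does not measure the mature microRNA, and what RNA these reads came from was not tested.

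Cd163, the scavenger receptor for haptoglobin-haemoglobin (ENSMUSG00000008845, chromosome 6, 124304651 to 124330527), had the lowest estimate of the 7. It was counted with 2949, 4833 and 4671 reads in the adventitia (748, 480 and 465 deposited CPM) and with 2294 and 476 reads in the intima (153 and 22.9 CPM). The intima libraries differed from each other 7.50-fold after TMM scaling, and the higher of them was still below every adventitia library. TMM-normalised means were 524 ± 105 CPM (SD, n = 3) and 102 ± 110 CPM (SD, n = 2), with a log2 difference of -2.36 (SE 0.72, 95% interval -3.95 to -0.78, adjusted p = 0.113 in edgeR). It was -4.58 without intima replicate 1 and -1.45 without intima replicate 2.

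Folr2, a folate receptor anchored to the membrane by a lipid (ENSMUSG00000032725, chromosome 7, 101839990 to 101845331), gave the smallest adjusted p of the 7. Its reads were 3915, 6430 and 11695 in the adventitia (993, 638 and 1163 deposited CPM) and 3360 and 2388 in the intima (224 and 115 CPM). Both intima libraries were again below all 3 adventitia libraries, with a wide gap between the groups. TMM-normalised levels were 880 ± 280 CPM (SD, n = 3) against 192 ± 101 CPM (SD, n = 2). The log2 difference of -2.20 (SE 0.52, 95% interval -3.33 to -1.06) corresponds to a 4.59-fold lower level and had an adjusted p = 0.0868 in edgeR.

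Lyve1, the hyaluronan receptor that names the class (ENSMUSG00000030787, chromosome 7, 110850607 to 110862953), separated the groups less well. Reads numbered 3704, 4096 and 4165 in the adventitia (940, 407 and 414 deposited CPM) and 4973 and 1870 in the intima (332 and 89.9 CPM). After TMM scaling, adventitia replicate 2 and intima replicate 1 were at the same level, 389.7 and 389.8 CPM, while adventitia replicate 1 stood higher at 810 CPM and intima replicate 2 lower at 94.2 CPM. The log2 difference was -1.16 (SE 0.61, 95% interval -2.50 to 0.19, adjusted p = 0.291 in edgeR). Without intima replicate 2 it was -0.37, and without intima replicate 1 it was -2.65.

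Cbr2, a carbonyl reductase of the short-chain dehydrogenase family (ENSMUSG00000025150, chromosome 11, 120729489 to 120732114), was the marker on which the intima libraries differed least from each other. It had 3276, 5989 and 10935 reads in the adventitia (831, 594 and 1088 deposited CPM) and 5020 and 5232 in the intima (335 and 251 CPM). The ranges did not overlap, and the gap between the lowest adventitia and the highest intima library was smaller than for Folr2. TMM-normalised means of 794 ± 271 CPM (SD, n = 3) and 328 ± 92.0 CPM (SD, n = 2) gave a log2 difference of -1.27 (SE 0.46, 95% interval -2.28 to -0.27, adjusted p = 0.140 in edgeR).

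Maf, a basic leucine zipper transcription factor (ENSMUSG00000055435, chromosome 8, 115682942 to 115707794), overlapped between the groups after TMM scaling. Its reads were 6577, 11271 and 12592 in the adventitia (1669, 1119 and 1252 deposited CPM) and 14595 and 5686 in the intima (975 and 273 CPM). TMM-normalised levels of 1072 to 1439 CPM in adventitial libraries took in intima replicate 1 at 1144 CPM, and intima replicate 2 stood alone at 286 CPM. The log2 difference of -0.81 (SE 0.55, 95% interval -2.03 to 0.40, adjusted p = 0.426 in edgeR) was -0.05 without intima replicate 2 and -2.27 without intima replicate 1.

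Selenop, the secreted protein that carries selenium to other cells (ENSMUSG00000064373, chromosome 15, 3268547 to 3280508), had the most reads of the 7 in every library and the smallest difference. Its reads were 42520, 83345 and 91794 in the adventitia (10788, 8272 and 9130 deposited CPM) and 105432 and 70751 in the intima (7043 and 3400 CPM). TMM-normalised levels were 7930 to 9303 CPM in adventitial libraries, 8264 CPM in intima replicate 1, inside that range, and 3562 CPM in intima replicate 2, below it. The log2 difference was -0.57 (SE 0.51, 95% interval -1.69 to 0.54, adjusted p = 0.564 in edgeR), -0.0016 without intima replicate 2 and -1.44 without intima replicate 1. The intervals of Lyve1, Maf and Selenop include 0 and also include decreases of more than 1 on the log2 scale.

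**Figure D2:**
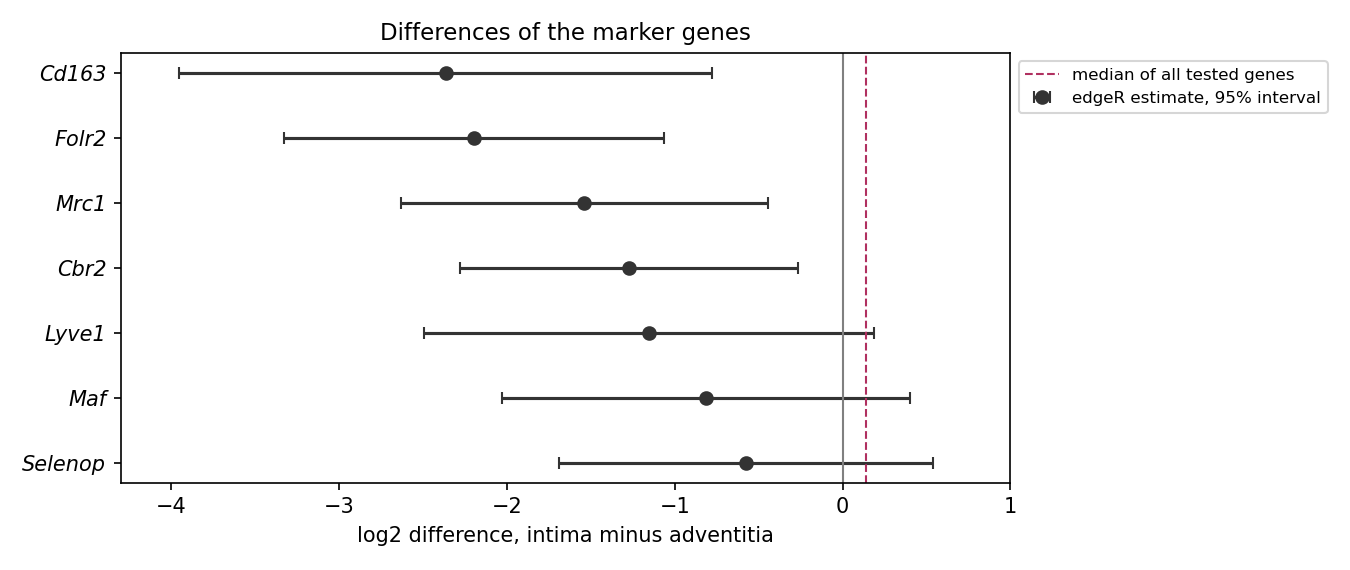
Log2 differences (x axis, intima minus adventitia) of the 7 markers with 95% intervals from the edgeR fit, beside 0 (grey line) and the median of all tested genes (dashed line, 0.14). The intervals of Cd163, Folr2, Mrc1 and Cbr2 lie below 0 and those of Lyve1, Maf and Selenop cross it; none passed adjustment over all genes.

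How many of the 7 were called varied with the tool, the low-count filter, the scaling and the libraries kept. In edgeR with all 5 libraries, 2 were called, Folr2 and Cd163, with no low-count filter or with 1 CPM required in every library. With library size alone 1 was called (Folr2), and 1 (Cd163) with the replicate number as a block (adjusted p = 0.00188 in edgeR). Of all genes tested, these 4 settings called 0.234, 0.585, 0.254 and 0.373% as lower, in that order. DESeq2 run on the same genes, an alternative added after the data were seen, called Folr2 and Cd163 as lower (adjusted p = 0.00421 and 0.0373), beside 5.16% of all genes called lower, and limma voom called Folr2, Cd163 and Mrc1 (adjusted p = 0.0361, 0.0385 and 0.0394), beside 4.66%. DESeq2 with its own filter on all genes with a read called 0. Without intima replicate 1, edgeR called Folr2, Cd163, Mrc1 and Maf as lower (adjusted p = 0.0239, 0.00661, 0.0160 and 0.0311), where 1.03% of all tested genes were called lower, and without intima replicate 2 it called 0. An exact two-sided permutation test over the 10 ways to place 5 libraries in groups of 3 and 2 gave p = 0.1 for Folr2, Cd163, Mrc1 and Cbr2, the smallest value this design allows, and p = 0.2 for Lyve1, Maf and Selenop. The estimate stayed below 0 for each marker in all 16 alternative settings.

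Compared per kilobase of exon, the adventitia order was Selenop, Folr2, Cbr2, Mrc1, Lyve1, Maf and Cd163. The TMM-normalised RPKM was 3095 ± 268 for Selenop, 815 ± 260 for Folr2, 598 ± 204 for Cbr2, 436 ± 54.3 for Mrc1, 207 ± 90.3 for Lyve1, 153 ± 22.2 for Maf and 117 ± 23.3 for Cd163 (SD, n = 3 each). Selenop stood apart from all the others, and every Mrc1 value lay above every Lyve1 value. Within the pairs Folr2 and Cbr2, Cbr2 and Mrc1, Lyve1 and Maf, and Maf and Cd163, the ranges over the 3 libraries overlapped. Within each adventitia library, Folr2 was still above Cbr2, Lyve1 above Maf and Maf above Cd163. In the intima means Cbr2 (248 RPKM) came before Folr2 (178 RPKM), and the rest of the order was the same, from Selenop at 2079 RPKM to Cd163 at 22.7 RPKM. Among all genes of a library ordered by RPKM, Selenop ranked 26, 27 and 31 in the adventitia and 25 and 37 in the intima. Cd163 ranked 369, 533 and 568 in the adventitia, 1544 in intima replicate 1 and 6346 in intima replicate 2.

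**Figure D3:**
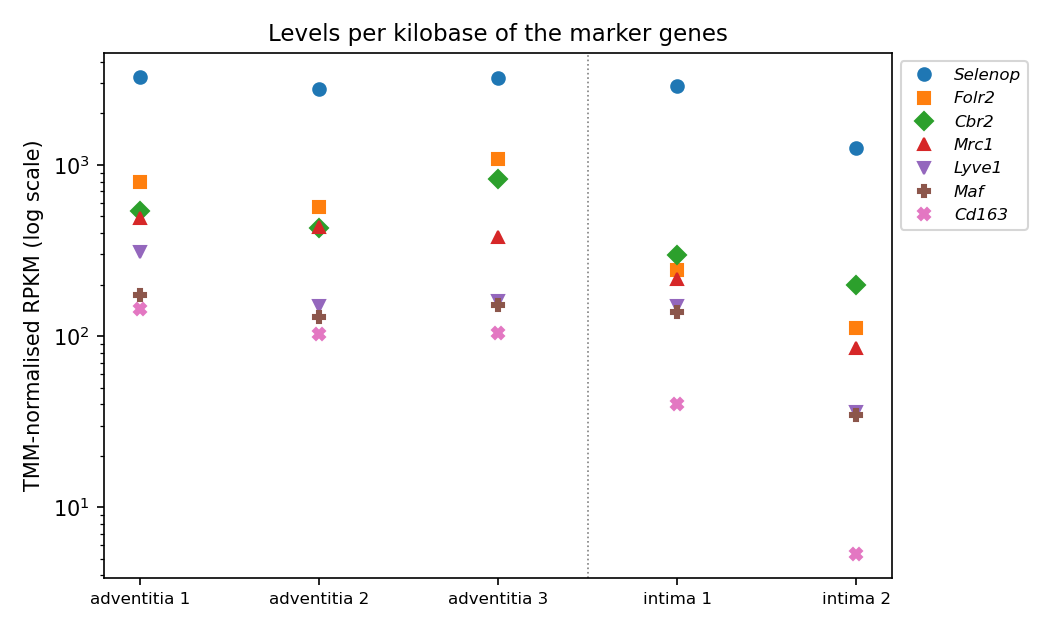
TMM-normalised RPKM (y axis, log scale) of the 7 markers in each library (x axis), adventitia left of the dotted line. Selenop was the highest and Cd163 the lowest in all 5 libraries, and Cd163 in intima replicate 2 was at 5.34 RPKM.

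The intima libraries differed from each other on most of these genes. Intima replicate 2 was below intima replicate 1 for 7 of 7 markers, by a ratio of 0.133 for Cd163, 0.242 for Lyve1, 0.250 for Maf, 0.399 for Mrc1, 0.431 for Selenop, 0.457 for Folr2 and 0.669 for Cbr2. Over all tested genes the median ratio was 0.964 and 49.1% were lower in replicate 2. Intima replicate 2 was also the lowest of the 5 libraries for 7 of 7 markers, as it was for 29.1% of all tested genes. Within the adventitia the highest library was 1.17 times the lowest for Selenop and 2.08 times for Lyve1, with the other markers between, where the median over tested genes at an average log2 CPM of 4 or more was 2.18. The same ratio within the intima ran from 1.49 for Cbr2 to 7.50 for Cd163, beside a median of 2.00. It was larger than in the adventitia for 6 of the 7 markers and smaller for Cbr2, and for Folr2 the ratios were close (1.91 and 2.19).

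Other genes known from LYVE1-type macrophages were mixed, with most at lower fitted levels in the intima. Of 24 such genes, all tested, 1 was called, lower in the intima (0.149% of all genes were), and 21 had a fitted difference below 0, with a list median of -1.02 beside the 0.14 of all genes. The ranges stood apart with the adventitia higher for 12 of the 24 (23.2% of all genes) and with the intima higher for 1 (17.7% of all genes). The called gene was Vsig4, a complement receptor of resident macrophages, with 758, 452 and 972 reads in the adventitia and 3 and 1 reads in intimal ones (fitted log2 difference -9.48, SE 1.18, adjusted p = 0.00374 in edgeR). Without adventitia replicate 1 its adjusted p was 0.124 in edgeR. Ccl8, a chemokine, was at 5078, 9646 and 9073 TMM-normalised CPM in adventitial libraries and 311 and 12.1 CPM in intimal ones, a separation that did not pass (log2 difference -5.62, SE 1.18, adjusted p = 0.0657 in edgeR). Pf4, platelet factor 4, was at 2089 to 2597 CPM in adventitial libraries, at 1975 CPM in intima replicate 1 and at 290 CPM in intima replicate 2 (adjusted p = 0.400 in edgeR). Of the 24, 17 were lower in intima replicate 2 than in replicate 1, and 12 were at a ratio under 0.5, a size that 30.9% of all tested genes reached. The gene with the intima higher was Hpgd, a prostaglandin-degrading enzyme, named after its values were seen, at 1316 and 681 CPM in intimal ones and 265 to 498 CPM in adventitial libraries (adjusted p = 0.113 in edgeR). Stab1, a scavenger receptor of this class, was at 342 to 402 CPM in adventitial libraries and 375 and 423 CPM in intimal ones.

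**Figure D4:**
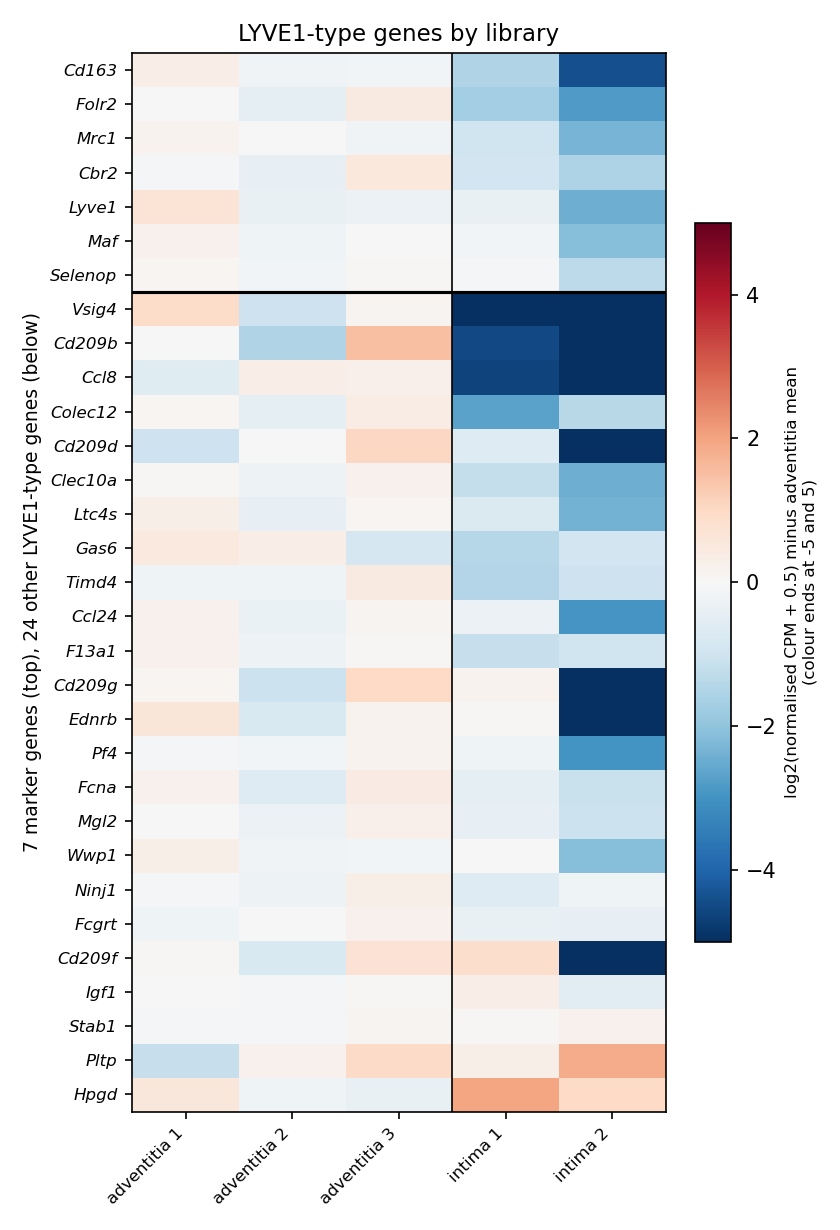
Colour gives log2(TMM-normalised CPM + 0.5) of each gene in each library minus its adventitia mean, for the 7 markers (above the line) and the 24 other LYVE1-type genes (below). The intima columns are mostly blue, replicate 2 more than replicate 1, and Vsig4 and Ccl8 are far below the adventitia in both.

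Genes that work with each marker, or are its relatives, were read from lists of their own. For hyaluronan, the ligand of LYVE1, 0 of 11 tested genes were called, with a list median of -0.52 in intima replicate 1 and 0.22 in intima replicate 2 on the log2(CPM + 0.5) scale against the adventitia mean; the other main hyaluronan receptor Cd44 was at 300 to 428 CPM in adventitial libraries and 472 and 429 CPM in intimal ones (fitted log2 difference 0.34, SE 0.40, adjusted p = 0.681 in edgeR). The hyaluronan synthase Has3 was under 3 CPM in all 5 libraries. For folate, the ligand of FOLR2, 0 of 17 tested genes of uptake and one-carbon metabolism were called and the list median was 1.16. That sign came from intima replicate 2: on log2(CPM + 0.5) against the adventitia mean, the list median was -1.25 in intima replicate 1, with 14 of 17 genes below 0, and 1.75 in intima replicate 2. Ggh, which trims folate chains, was at 82.8 to 144 CPM in adventitial libraries and 173 and 60.0 CPM in intimal ones, and Fpgs, which builds them, at 7.41 to 20.3 CPM in adventitial libraries and 0.078 and 0.403 CPM in intimal ones (adjusted p = 0.119 in edgeR). Mthfd2, a mitochondrial one-carbon enzyme, differed between the intima libraries, with 0.235 CPM in the first and 129 CPM in the second.

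Beside Cd163, 1 of 11 tested genes of haemoglobin and haem handling was called, and it was higher in the intima. Of all 13408 genes tested, 70 were called higher. Slc40a1, the iron exporter ferroportin, was at 7.44, 0.856 and 6.00 CPM in adventitial libraries and 144 and 124 CPM in intimal ones (fitted log2 difference 4.83, SE 0.87, adjusted p = 0.0328 in edgeR). The call was lost without adventitia replicate 1 or 3 (adjusted p = 0.215 and 0.124 in edgeR) and with upper-quartile scaling (0.0640). The ferritin genes Fth1 and Ftl1, which store iron, had log2 differences of 0.74 and 0.31 without passing (adjusted p = 0.415 and 0.732 in edgeR), and Fth1 stood at 15727 and 10066 CPM in intimal ones above 5376 to 9224 CPM in adventitial libraries. The list median was 0.68, on the other side of 0 from Cd163.

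The mannose receptor family had 0 of 4 tested genes called and a median of -3.29, but 3 of its members, among them Mrc2 with at most 6.47 CPM, were scarce in every library. Cd302, the abundant member, was at 322 to 393 CPM in adventitial libraries and 329 and 95.8 CPM in intimal ones. Among 5 tested relatives of Cbr2, 0 were called and the median was 1.02; Dcxr, an enzyme of the same kind, was at 10.4 to 37.6 CPM in adventitial libraries and 37.8 and 86.7 CPM in intimal ones. Of 7 tested MAF-family factors and partners 0 were called, with a median of -0.29 (0.30 in intima replicate 1 and -0.86 in intima replicate 2 on the log2(CPM + 0.5) scale). Nfe2l2, the oxidative stress factor NRF2, was at 380 to 627 CPM in adventitial libraries and 427 and 572 CPM in intimal ones. Beside Selenop, 0 of 22 tested genes of selenoprotein synthesis and selenium use were called and the median was 0.35. Gpx1, a selenium-dependent glutathione peroxidase, stood at 3034 and 1928 CPM in intimal ones and 1247 to 1918 CPM in adventitial libraries (log2 difference 0.68, adjusted p = 0.379 in edgeR), and Selenow at 1434 and 356 CPM against 839 to 1066 CPM. Sepsecs, which makes selenocysteine on its transfer RNA, was at 8.10 to 13.5 CPM in adventitial libraries and 0.235 and 0.050 CPM in intimal ones without passing (adjusted p = 0.124 in edgeR). Members of these lists other than the 2 called genes and those named here gave no adjusted p under 0.05.

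**Figure D5:**
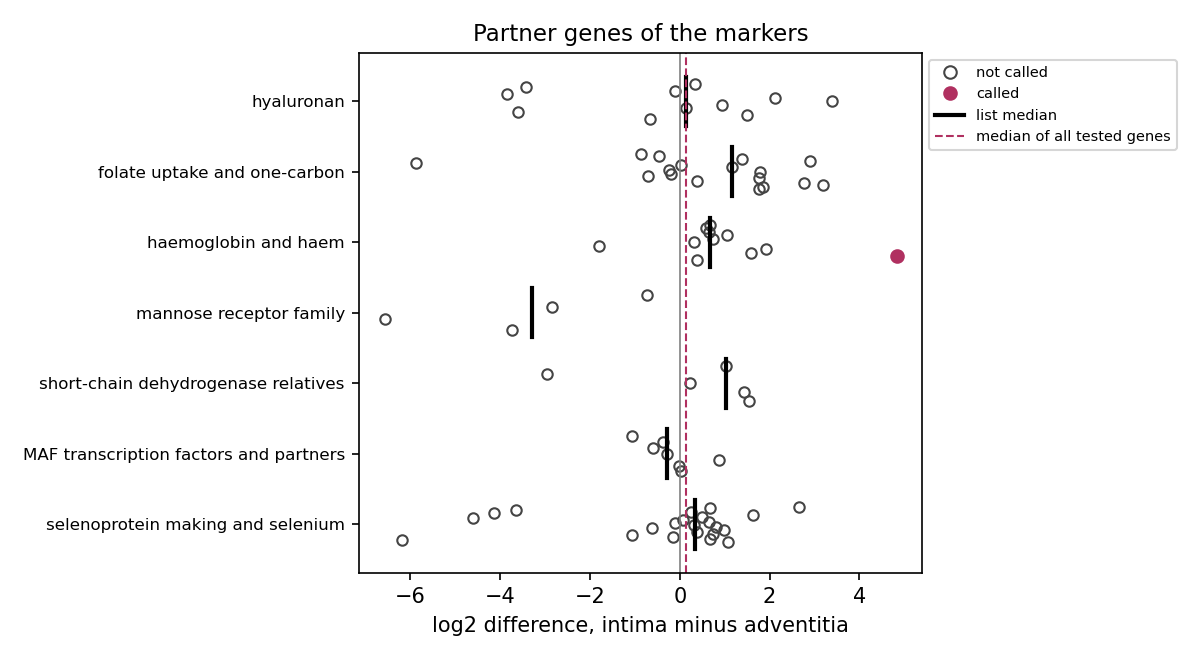
Log2 differences (x axis, intima minus adventitia) of tested genes in the 7 lists of genes that work with a marker or are its relatives (y axis). List medians are black bars and called genes are filled. Slc40a1 is the single called gene. The medians of the hyaluronan (0.13), folate, haemoglobin, short-chain dehydrogenase (1.02) and selenoprotein lists lie above 0. That of the folate list does so through intima replicate 2 (-1.25 in intima replicate 1 and 1.75 in intima replicate 2).

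The libraries held macrophage RNA in both groups, and the label check on the knockout was as labelled. Apoe was at 10.9 to 18.2 TMM-normalised CPM in adventitial libraries and at 5563 and 4409 CPM in intimal ones. Itgax, which encodes the CD11c of the intima gate, was at 16.8 to 33.8 CPM and at 73.4 and 274 CPM, and the MHC class II gene H2-Ab1 at 2354 to 5380 CPM and at 8291 and 7855 CPM, neither passing (adjusted p = 0.0868 and 0.240 in edgeR). The 10 core macrophage genes summed to 15124 to 17499 deposited CPM in adventitial libraries and 14651 and 13765 CPM in intimal ones, with 0 of 10 called, and Fcgr1, which encodes CD64, was at 99.3 to 281 CPM and at 179 and 146 CPM after TMM scaling. Against the summed core genes, the 7 markers together, mostly Selenop, came to 128, 87.4 and 90.1% in the adventitia and 69.3 and 33.7% in the intima. With core macrophage reads as the library size, the median log2 difference of the 7 was -1.34 and Folr2 alone was called (adjusted p = 0.0499 in edgeR). That setting called 0.246% of all genes as lower.

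Markers of other cells moved with the groups too, and their part in the marker differences was not tested. For the calls below, the background over all 13408 genes tested was 70 called higher and 20 called lower in the intima. The 7 lymphatic endothelial genes, the other main source of LYVE1, summed to 11.2 to 18.0 deposited CPM in adventitial libraries and 4.68 and 23.98 CPM in intimal ones, with Ccl21a at 0 in all 5 libraries and Pdpn at no more than 0.067 CPM; Mmrn1 was the most abundant, at up to 12.9 CPM. In the same libraries Lyve1 itself had 407 to 940 CPM (adventitia) and 332 and 89.9 CPM (intima). Fibroblast genes were higher in the adventitia, with the 7 genes summing to 631 to 1444 CPM against 267 and 213 CPM and Dcn the most abundant at up to 702 CPM; of 7 tested, 1 was called, the lower Lum. Blood endothelial genes went the other way, from 32.8 to 50.7 CPM in adventitial libraries to 690 and 823 CPM in intimal ones, led by Pecam1, with 3 of 8 tested genes called higher. Smooth muscle genes summed to 2.38 to 8.88 CPM and to 264 and 85.8 CPM, led by Acta2, with Tagln called higher. Most of the intima sums was Acta2 and Tagln. Of the 5 smooth muscle genes tested, 4 had a fitted difference above 0 and 1 below. The 1 below was Myh11, scarce in every library and lower in both intima libraries (0.470 and 0 TMM-normalised CPM) than in any adventitia library. Its log2 difference was -2.09 (adjusted p = 0.427 in edgeR). Cnn1 was not tested and had at most 0.761 deposited CPM. Dendritic cell genes summed to 207 to 416 CPM and to 5.68 and 32.6 CPM, led by Cd209a, the 1 called lower of 6 tested. Most of the adventitia sum was Cd209a, at 193 to 391 TMM-normalised CPM there and 0.549 and 0.403 CPM in intimal libraries. Of the 6 genes, 4 had a fitted difference below 0 and 2 above. Clec9a was higher in both intima libraries (5.80 and 22.5 CPM) than in the adventitia (0.381 to 4.16 CPM). Monocyte genes summed to 595 to 1126 CPM and to 110 and 240 CPM, led by Ccr2, with Plac8 the 1 called lower of 5 tested. Mesothelial and adipocyte genes were at most 3.81 CPM in 4 libraries and at 177 CPM in intima replicate 2, almost all from Msln.

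Genes with the most similar profiles over the 5 libraries were found for each marker among 6522 other named genes at an average log2 CPM of 4 or more, by the root mean square difference of centred log2 levels. With 5 libraries this is a description and was not tested. Folr2 was closest to Ccl6, a chemokine (0.16), at 4793 to 6483 CPM in adventitial libraries and 1637 and 767 CPM in intimal ones. Mrc1 was closest to Ndufc1 (0.12) and Itgam (0.13), the latter encoding the integrin chain CD11b. Cd163 was closest to Pdgfc (0.19), a growth factor, Cbr2 to Slc15a4 (0.16), Lyve1 to Cenpb (0.12), Maf to Wwp1 (0.098), a ubiquitin ligase that is itself among the 24 other LYVE1-type genes, and Selenop to Cmtm6 (0.077). Among the markers themselves Lyve1 and Maf were the closest pair (0.29) and Cd163 and Selenop the farthest apart (1.25).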

How the data were processed

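The authors deposited 1 table for each of the 5 libraries, with a row for each Ensembl gene and its position and length. Tools listed without roles in the submitters' processing notes are STAR (2.0.4b), featureCounts (1.4.5) and Subread, with GRCm38 as build; the annotation release and strand setting are not given in the sources used here. The deposited count column held whole reads, and the CPM and RPKM columns the authors deposited matched those recomputed from the counts (0 mismatches at a tolerance of 1e-06). Totals ran from 3941381 to 20806925 reads, so 3 reads are worth 0.761 to 0.144 CPM. Adventitia replicates 1 to 3 had a read on 23289, 25212 and 25738 genes. The intima libraries, although deeper, had a read on 17489 and 16374 genes. Symbols were found for 40254 of 41388 identifiers.

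Genes were kept by filterByExpr (minimum count 10, minimum total 15), scaled by TMM and tested in edgeR 4.0.16 (R 4.3.3), with p-values adjusted over all 13408 genes by Benjamini and Hochberg. DESeq2 1.42.0, limma 3.58.1 (voom), other scalings and filters, thinning, a replicate block and leaving out each library were alternatives; 1 was added after the data were seen. The edgeR script was tested on simulated counts. Besides the 7 markers, named genes were called members of each list, its 2 most abundant tested members and its largest difference; Hpgd was named after its values were seen, and 1 gene that the rule names is not reported here. The markers, lists and rule were chosen with earlier results of these data known. Replicate numbers did not pair adventitia with intima libraries, since the groups come from different mice. No other gene overlapped a marker on the same strand except Mir511; on the other strand Gm15655 overlapped Maf with 0 reads. The SE of a single fit was derived from its quasi-likelihood F value, and the interval from a t value on 11.3 degrees of freedom. Both take in counting error and the spread between libraries. The dispersion borrows from other genes, so they are not the spread of 1 gene alone. RefSeq promoters were matched by symbol.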

Additional observations from a re-analysis of the deposited data

How the results depend on the processing

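Each marker was lower in the intima in all 16 alternatives, and of 112 single-marker alternatives 96 gave no call, as did the edgeR test reported, and 16 passed as lower. Of the 7 markers, edgeR called 0 as reported, 1 with library size alone, 1 with core macrophage reads as library size, 2 without a low-count filter, 2 with 1 CPM in every library and 1 with the replicate block. Of all genes, 0.149% were called lower as reported and 0.234 to 0.585% in those other edgeR settings. limma voom called 3 markers (4.66% of all genes lower), and DESeq2 on the genes edgeR tested (added after the data were seen) 2 (5.16%). The count ran from 0 to 4 with 1 library left out, 4 being without intima replicate 1; intima then has 1 library, assumed to vary like the others. The block called Cd163, and no other marker; replicate numbers share only a number here (correlation across genes of the replicate 1 to 2 differences 0.031). Groups did not overlap for 4 markers as reported and for 7 with upper-quartile scaling, library size alone, core macrophage reads, 1 CPM in every library and thinning, and for 4 to 7 with 1 library left out. Of all tested genes 23.2% stood apart with the adventitia higher as reported, and 26.4% on the deposited CPM. For the other settings this share of all genes was not counted, so their marker counts cannot be read against it. The median log2 difference was -1.75 with upper-quartile scaling, where that of all genes was -0.35 against 0.14 with TMM and -0.09 with library size; relative to all genes it was -1.41 with TMM, -1.40 with upper-quartile and -1.42 with library size, but 0.80 with no low-count filter and 0.73 with DESeq2 on all genes with a read, where low genes enter the median of all genes, and -0.30 without intima replicate 2. It ran from -2.48 to -0.92 with 1 library left out. Over all genes the calls were 90 as reported, 183 with the replicate block, 839 with voom, 1180 with DESeq2 on the same genes and 10 to 389 with 1 library left out. The causes were not tested. Depth limits the scarce partner genes under 3 reads, not the markers, whose lowest count was 476.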

Other observations

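The intima libraries split on some lectin genes and an endothelin receptor gene of the LYVE1-type list as they did on the markers. This was noticed after the values were seen. Cd209f, a lectin of the DC-SIGN family, had 311 TMM-normalised CPM in the first intima library and 0.302 in the second, against 98.7 to 276 CPM in the adventitia. Cd209g was at 42.7 and 0.453 CPM, Cd209d at 32.0 and 0 CPM, and Ednrb, the endothelin B receptor, at 242 and 2.37 CPM in the intima. These genes had adventitia levels of at least 17.3 CPM in each library. Other lectin genes of the list split less or in the opposite direction. In the first and second intima library Mgl2 was at 369 and 234 CPM, Clec10a at 127 and 52.3 CPM and Fcna at 61.7 and 38.3 CPM. Cd209b was scarce in both (1.02 and 0 CPM), and Colec12 was higher in the second (4.62 and 11.8 CPM). Ccl8 split too, at 311 and 12.1 CPM, though both values were below its lowest adventitia level of 5078 CPM. Vsig4 was at 0.235 CPM or less in both.

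Folate and one-carbon genes split in the opposite direction, also noticed after the values were seen. Of 17 tested genes, 2 were lower in intima replicate 2 than in replicate 1, against 49.1% of all tested genes, and the median ratio of replicate 2 to replicate 1 was 6.39. Shmt2 had 0.157 CPM in the first intima library and 97.4 CPM in the second, against 3.71 to 9.41 CPM in the adventitia, and the folate carriers Slc46a1 and Slc19a1 were at 0 and 39.8 CPM and at 0.078 and 34.8 CPM. Folr2, the folate receptor among the markers, moved the other way between these libraries, from 263 to 120 CPM. No test compares 1 library with 1 library. Both intima libraries had a read on fewer genes (17489 and 16374) than any adventitia library (23289 to 25738). The part of this difference in the splits of the folate, lectin and endothelin receptor genes was not tested.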
